A study of Mus musculus with 250 samples.

Results

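The mu class of glutathione transferases in the mouse comprises Gstm1 to Gstm7, and all 7 symbols had a row among the 27003 genes of the count table. Members were taken by symbol, because Gstm1, Gstm2 and Gstm5 were already known from this table to be lower in the wound bed than in control cells. Those differences are therefore given as descriptions. Each count is a number of sequencing reads per gene and cell from Smart-Seq2, a plate-based method that reads whole transcripts and uses no molecular identifiers. The study sorted 250 Sca1-positive, Lrig1-lineage epidermal cells of mouse tail skin (genotype Lrig1CreER/Rosa-TdTomato), all labelled with a time of 8 weeks and the abbreviation pw1, which the labels do not spell out. Lrig1CreER drives recombination in Lrig1-expressing stem cells, chiefly of the upper hair follicle, so cells outside that lineage were not sampled. Sca1 is a surface protein that was used to enrich for the upper follicle. There were 84 cells from a non-memory control region, 81 from the distal memory region and 85 from the wound bed, all of the same genotype, sort and time. Each region was split over batches 1 and 2, with 1 plate for each region and batch: 28 and 56 control cells, 32 and 49 distal cells, and 30 and 55 wound bed cells. Region and plate cannot be told apart within a batch. No animal is named, so each region is 1 sample, no test was run, and values show only the spread between cells and batches.

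Glutathione transferases join glutathione to reactive, often fat-soluble compounds, which makes them easier to remove. The conjugates leave the cell through transporters of the Abcc family and are trimmed to mercapturates. Mu class enzymes are dimers of subunits from a gene cluster, and in many tissues their genes are raised through NRF2, which binds antioxidant response elements. The aryl hydrocarbon receptor acts through xenobiotic response elements on some of the same detoxification genes.

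The 7 genes lie on chromosome 3 (GRCm38, GENCODE M21) within 149 kb. Gstm5 (ENSMUSG00000004032) sits on the plus strand at chr3:107895821-107898686. The other 6 are on the minus strand. In order they are Gstm7 (chr3:107926334-107931817), Gstm6 (chr3:107938847-107943749), Gstm3 (chr3:107963696-107969283), Gstm2 (chr3:107981702-107986453), Gstm1 (chr3:108012255-108017973) and Gstm4 (chr3:108040408-108044894). Because reads of close copies can be split between them, the members were compared by sequence. In coding sequence Gstm1 was 85.9% identical to Gstm2, 89.4% to Gstm3 and 71.4% to Gstm5. Of the 31-base words in the principal transcript of each gene, 65.7% were found in no other gene for Gstm1, 80.5% for Gstm2 and 83.8% for Gstm5. Gstm1 and Gstm5 shared none of these words, while Gstm1 and Gstm2 shared 39 and Gstm1 and Gstm3 shared 195. Levels of Gstm1 and Gstm2 are thus uncertain where the counting had to divide reads, and those of Gstm5 are not affected by the other members in this way. All words that Gstm5 shared belonged to 4933431E20Rik, an overlapping antisense gene. That gene had 565 reads in 21 cells, 17 of which also had a Gstm5 read, and whether the counting used strand is not given in the sources used here. The same stretch of 60 coding bases is given for Gstm1, Gstm2, Gstm3 and Gstm5 to set Gstm1 beside its closest copy, Gstm3, and beside the other two members with most reads, 5′ to 3′, with capitals marking bases that differ from Gstm1. They are bases 13 to 72 of the coding sequence, and 22 to 81 in Gstm5, whose coding sequence is 672 bases long against 654 in the other members.
Gstm1: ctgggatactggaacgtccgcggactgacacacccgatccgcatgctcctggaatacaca
Gstm3: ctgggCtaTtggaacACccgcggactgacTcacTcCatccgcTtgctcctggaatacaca
Gstm2: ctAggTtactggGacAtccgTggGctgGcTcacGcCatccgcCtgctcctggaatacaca
Gstm5: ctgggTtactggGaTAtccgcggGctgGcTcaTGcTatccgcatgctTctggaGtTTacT
In this stretch Gstm3 differed from Gstm1 at 8 bases, Gstm2 at 11 and Gstm5 at 15.

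Promoter sequence of the 3 members with most reads is shown because they varied together between regions. The windows come from RefSeq (GRCm38.p6) and stop before the first annotated exon. For Gstm1, which has 2 starts in that table, the upstream one was used. A pair of motifs was searched on both strands, the antioxidant response element core TGACNNNGC and the xenobiotic response element core GCGTG. Matches are in capitals.
Gstm5, chr3:107895604-107895820, plus strand: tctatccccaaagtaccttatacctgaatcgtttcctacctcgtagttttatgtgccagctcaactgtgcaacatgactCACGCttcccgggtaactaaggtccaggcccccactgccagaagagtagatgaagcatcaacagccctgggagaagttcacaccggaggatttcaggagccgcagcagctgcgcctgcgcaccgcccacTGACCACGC
Gstm1, chr3:108017974-108018223, minus strand: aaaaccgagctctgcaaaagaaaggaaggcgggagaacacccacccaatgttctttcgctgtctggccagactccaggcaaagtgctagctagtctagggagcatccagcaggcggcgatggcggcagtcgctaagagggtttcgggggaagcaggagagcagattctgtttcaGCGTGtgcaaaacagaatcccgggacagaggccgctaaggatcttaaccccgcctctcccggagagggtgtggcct
Gstm2, chr3:107986454-107986670, minus strand: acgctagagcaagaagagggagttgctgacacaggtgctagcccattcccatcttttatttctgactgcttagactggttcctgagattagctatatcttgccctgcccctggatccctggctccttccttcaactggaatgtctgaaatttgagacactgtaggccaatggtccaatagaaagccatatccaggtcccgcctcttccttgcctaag
Gstm5 held 1 antioxidant core and 2 xenobiotic cores, and one of these, read on the other strand, overlaps the antioxidant core at the end of the window. Gstm1 held 1 xenobiotic core, 76 bases before its start. The Gstm2 window held neither set of letters. Among all 32851 RefSeq windows, each of 250 bases before a start, 10.2% held the antioxidant core, 28.2% the xenobiotic core and 3.52% both. These matches describe letters and not bound sites.

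Across the 250 cells the 7 members had 25827 reads, of which Gstm5 took 58.9%, Gstm1 31.7% and Gstm2 7.61%. A read of at least 1 member was present in 187 cells, and Gstm3 had none in any cell, so at these depths up to 1.2% of cells could hold a read, by a floor of 3 counts. Gstm5 was the member with most reads per length in each of the 6 plates. On the counts-per-million scale (CPM, relative to the plate's scaled total) and per kilobase of the longest transcript, Gstm5 stood at 956 and 1398 in control batches 1 and 2, at ranks 74 and 38 of 15898 genes. Gstm1 stood there at 323 and 618 and Gstm2 at 105 and 187. In every plate the order per length was Gstm5, Gstm1, Gstm2. Wound bed levels per kilobase were 48 and 167 for Gstm5, 26.2 and 40.5 for Gstm1, and 14.6 and 21.8 for Gstm2.

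The cells were epidermal by the marker lists used, with at least 1 read of a basal list in 97.6% of cells and of a suprabasal list in 99.6%. Reads of haematopoietic, fibroblast, endothelial and melanocyte lists were present in 2%, 3.6%, 2% and 1.2% of cells. Median reads per cell were 63690 in control, 47047 in distal and 41206 in wound bed cells, and 4 distal cells of batch 1 exceeded 500000. Predicted genes led by Gm10800 took over 5% of non-mitochondrial reads in 24 control, 3 distal and 1 wound bed cells. Results that depend on such cells are given with and without them.

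Gstm5 was detected in most control cells and in a minority of wound bed cells. The share of cells with a read was 84.5% in control (95% Clopper-Pearson interval 75 to 91.5%), 59.3% in distal (47.8 to 70.1%) and 31.8% in wound bed cells (22.1 to 42.8%). Intervals cover counting error only, since several reads can stem from 1 molecule and several cells from 1 animal. By batch the shares were 78.6 and 87.5% in control, 53.1 and 63.3% in distal, and 23.3 and 36.4% in wound bed cells. The order control, distal, wound bed thus held in each batch. With batches pooled the intervals of the 3 regions did not overlap. The share of all genes with such intervals is not given here, so nothing is read from this. Within each batch the distal interval overlapped both others. In the order control, distal, wound bed the intervals were 59 to 91.7, 34.7 to 70.9 and 9.93 to 42.3% in batch 1. In batch 2 they were 75.9 to 94.8, 48.3 to 76.6 and 23.8 to 50.4%. With each cell thinned to 10000 reads, which leaves 83, 77 and 78 cells, the shares were 81.9, 48.1 and 24.4%.

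Gstm1 followed the same order. It had a read in 72.6% of control (61.8 to 81.8%), 56.8% of distal (45.3 to 67.8%) and 27.1% of wound bed cells (18 to 37.8%). Batches gave 67.9 and 75%, 53.1 and 59.2%, and 20 and 30.9%. With all reads, control and distal cells thus lay closer together than either lay to the wound bed. The control and distal intervals overlap for this gene. Thinned shares were 63.9, 46.8 and 20.5%. In batch 1 they were 53.6, 34.4 and 17.2%, where distal cells did not lie closer to control than to the wound bed.

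Gstm2 was sparser in each region, with a read in 51.2% of control (40 to 62.3%), 37% of distal (26.6 to 48.5%) and 23.5% of wound bed cells (15 to 34%). Its batches gave 50 and 51.8%, 31.2 and 40.8%, and 26.7 and 21.8%. With batches pooled, neighbouring regions in this order had overlapping intervals, and only control and wound bed did not overlap. As for Gstm5, nothing is read from that. In batch 1 alone control and wound bed overlapped as well (30.6 to 69.4 and 12.3 to 45.9%). After thinning the shares were 38.6, 20.8 and 12.8%. Thinned cells of batch 1 gave 28.6, 9.38 and 13.8%, so distal lay below wound bed cells there, on 3 and 4 cells with a read. Those of batch 2 gave 43.6, 28.9 and 12.2%.

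**Figure D1:**
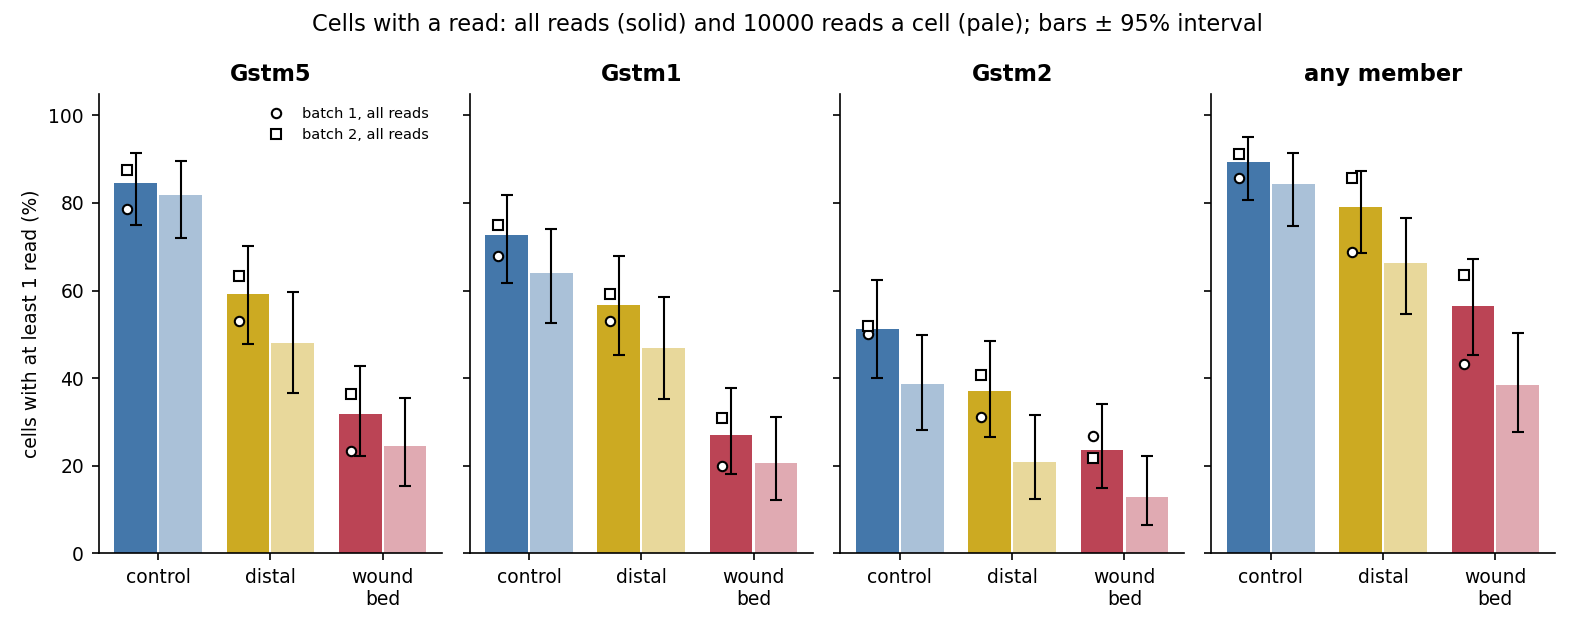
Percent of cells with at least 1 read of Gstm5, Gstm1, Gstm2 or any of the 7 members (vertical axis) in control, distal memory and wound bed cells. Solid bars use all reads and pale bars 10000 reads a cell, error bars are 95% Clopper-Pearson intervals, and the circles and squares are batches 1 and 2; Gstm5 goes from 84.5% in control through 59.3% in distal to 31.8% in wound bed cells.

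The remaining members were rare. Gstm6 had 261 reads in 13 cells, 5 control, 6 distal and 2 wound bed. Gstm7 had 163 reads in 7 cells, 4 control, 1 distal and 2 wound bed, and Gstm4 had 30 reads in 4 cells, with 27 of these in a single distal cell of batch 2. None of the 28 control cells in batch 1 had a read of Gstm4, Gstm6 or Gstm7. All 3 encode further mu class subunits, and they had reads in too few cells for any region to be set against another. The processed pseudogene Gstm2-ps1, whose transcript shares words with Gstm1 and Gstm2, had 20 reads in 16 cells, 12 control and 4 distal.

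Among cells with a read, medians in the wound bed were below those in control for Gstm5, Gstm1 and Gstm2 in both batches. Relative to each cell's own total, the median Gstm5 level in such cells of batches 1 and 2 was 490 and 1019 CPM in control, 273 and 1136 in distal, and 140 and 359 in wound bed cells. The order of control and distal cells thus differed between batches for Gstm5. For Gstm1 the medians were 205 and 910 CPM in control, 149 and 486 in distal, and 143 and 105 in wound bed cells, so that distal and wound bed cells of batch 1 were close. For Gstm2 they were 95 and 451, 89.1 and 319, and 40.4 and 50.1 CPM. The wound bed medians of batch 1 rest on only 7 cells for Gstm5, 6 for Gstm1 and 8 for Gstm2. Quartiles of Gstm5 overlapped between wound bed and control, at 58.4 to 394 against 269 to 1117 CPM in batch 1 and 202 to 760 against 449 to 2796 in batch 2. Over all cells the sum of the 7 members had a median of 1386 CPM in control, 443 in distal and 24.2 in wound bed cells. By batch these medians were 699 and 1967, 121 and 808, and 0 and 31.3 CPM. Distal cells of batch 2 lay above control cells of batch 1, so levels were compared within a batch.

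**Figure D2:**
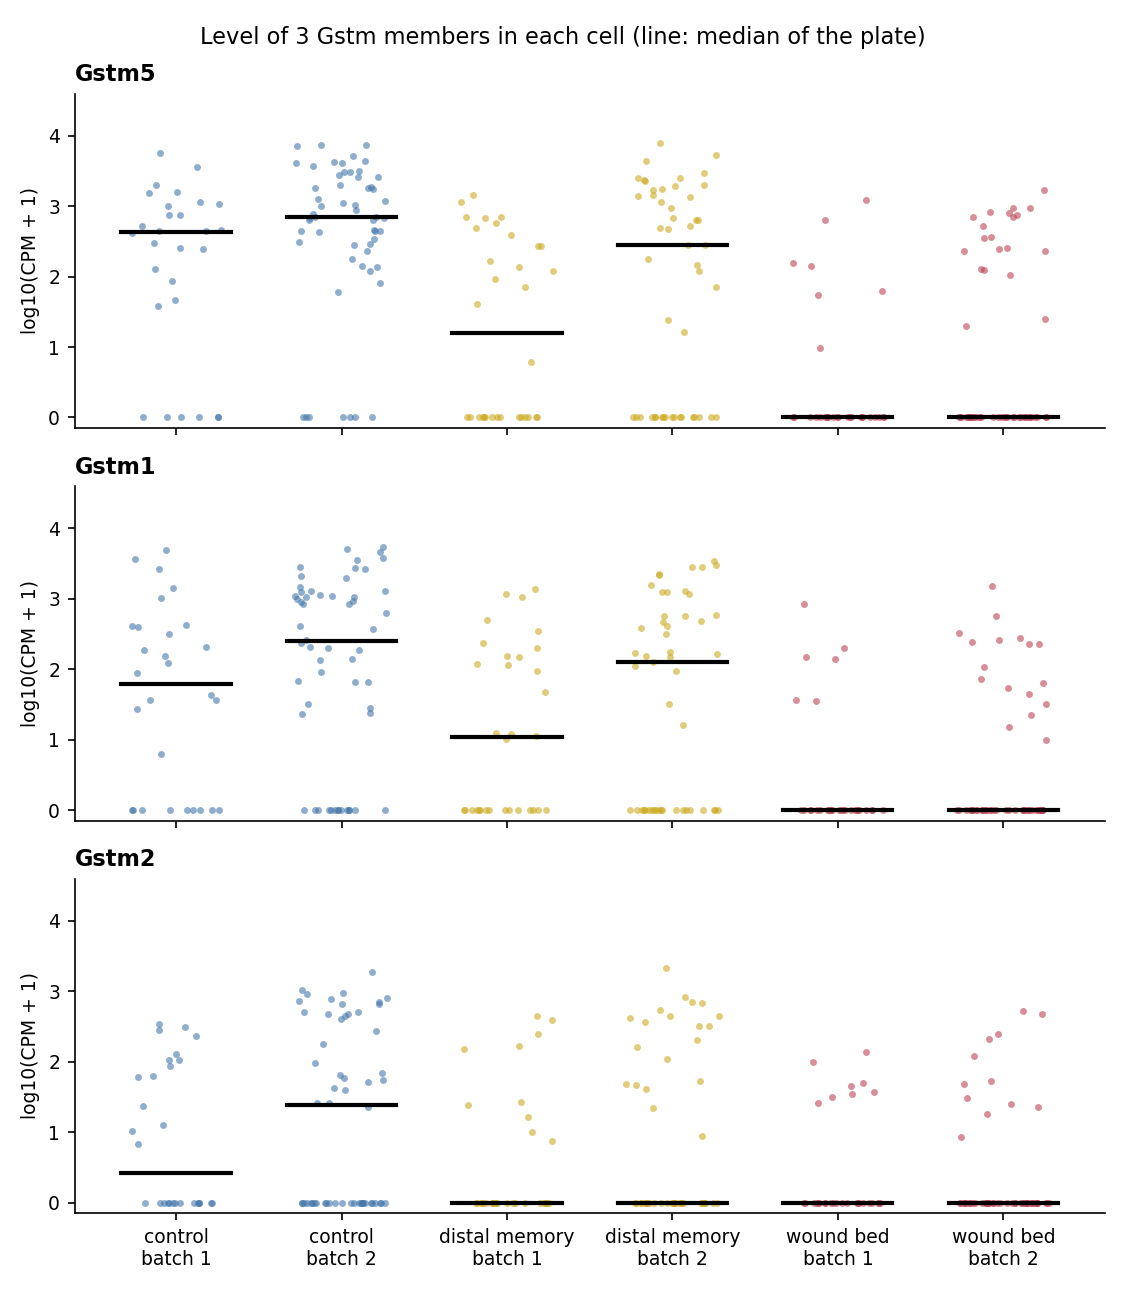
Level of Gstm5, Gstm1 and Gstm2 in each cell, as log10 of CPM plus 1, for the 6 plates; each point is a cell and the black line is the plate's median. Cells without a read lie at 0, where most wound bed cells are found, and the wound bed medians are 0 for all 3 genes in both batches.

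Wound bed cells carried far less mu family transcript than control cells. Summed over a plate, the members had 5052 and 11835 reads in control batches 1 and 2, against 195 and 805 in the wound bed. Scaled by TMM, a correction for the make-up of each library, these are 1432 and 2367 CPM in control and 108 and 243 in the wound bed. The family was 13.3-fold lower in batch 1 (counting interval 11.5 to 15.4) and 9.74-fold lower in batch 2 (9.07 to 10.5). In such sums, fewer cells that hold a transcript and less of it per cell cannot be told apart.

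Gstm1, Gstm2 and Gstm5, the members with most reads, were lower in both batches. Gstm5 had 904 and 1321 CPM in control and 45.3 and 158 in the wound bed, which gave log2 ratios of -4.29 and -3.06. It was 19.9-fold lower in batch 1 (16 to 25.1) and 8.38-fold lower in batch 2 (7.67 to 9.18). These intervals treat each read as independent, while 2 cells held 75.6% of the 82 Gstm5 reads in wound bed batch 1. A difference in size between the batches therefore cannot be read from them. Gstm1 had 417 and 797 CPM in control and 33.7 and 52.2 in the wound bed, with log2 ratios of -3.59 and -3.91 (12.4-fold and 15.3-fold lower). Gstm2 had 112 and 199 CPM against 15.5 and 23.2, with log2 ratios of -2.77 and -3.05 (7.21-fold and 8.58-fold lower). A gene was called lower or higher when its log2 ratio of CPM plus 1 was at least 1 in size with 1 sign in both batches, provided that in each batch 10% or more of the cells in a compared region had a read. By this rule Gstm1, Gstm2 and Gstm5 were lower, which are the 3 members considered. Of all 5776 genes considered, 8.24% were called lower and 7.83% higher. The members were chosen on this contrast, so nothing is read from their count. Their median log2 ratio was -3.67 and that of all genes considered was -0.02.

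Distal cells lay between the other regions for Gstm1, Gstm2, Gstm5 and the family sum in both batches. The family had 3200 and 4740 reads on the distal plates, or 423 and 1340 CPM, and was 3.39-fold lower than control in batch 1 (3.24 to 3.54) and 1.77-fold lower in batch 2 (1.71 to 1.83). Gstm5 had 278 and 771 CPM (log2 ratios to control of -1.70 and -0.78), Gstm1 had 125 and 439 (-1.73 and -0.86) and Gstm2 had 20.6 and 88.5 (-2.38 and -1.16). All 3 were lower than control in both batches. Only Gstm2 passed the size rule, while Gstm1 and Gstm5 fell just short of it in batch 2. Among 6356 genes considered, 6.09% were called lower and 8.07% higher. The Gstm2 call was lost with every cell weighted equally (mean log2 ratio -0.47) and after thinning (-0.45). In distal batch 1, 2 cells with 1703213 and 1977308 reads held 72.2% of the family's reads. Without the cell with most family reads on each plate the distal family ratio to control moved from -1.29 to -1.61, and no member passed the rule. Gstm2 then stood at -2.41 and -0.99, Gstm1 at -2.08 and -0.80, and Gstm5 at -2.44 and -0.98.

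Against the wound bed, distal cells had more Gstm5 and Gstm1 in each batch. The log2 ratios were 2.59 and 2.28 for Gstm5 and 1.86 and 3.05 for Gstm1, and both genes passed the rule as higher. Gstm2 stood at 0.39 and 1.88 and did not, but it passed as higher with cells weighted equally (1.55 and 2.29), without cells over 500000 reads (1.56 and 1.89) and after thinning (1.07 and 1.89). In distal batch 1, 2 cells held 81.9% of the Gstm5 reads. Without cells over 500000 reads the batch 1 ratio of Gstm5 was 1.63 against the wound bed and -2.66 against control. Of 6285 genes considered, 9.59% were called higher and 5.28% lower. Distal cells enter this comparison and the one with control, and wound bed cells likewise enter 2 of the 3, so the comparisons are not independent of each other. The family was 3.92-fold higher in distal cells in batch 1 (3.39 to 4.56) and 5.51-fold higher in batch 2 (5.12 to 5.95).

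**Figure D3:**
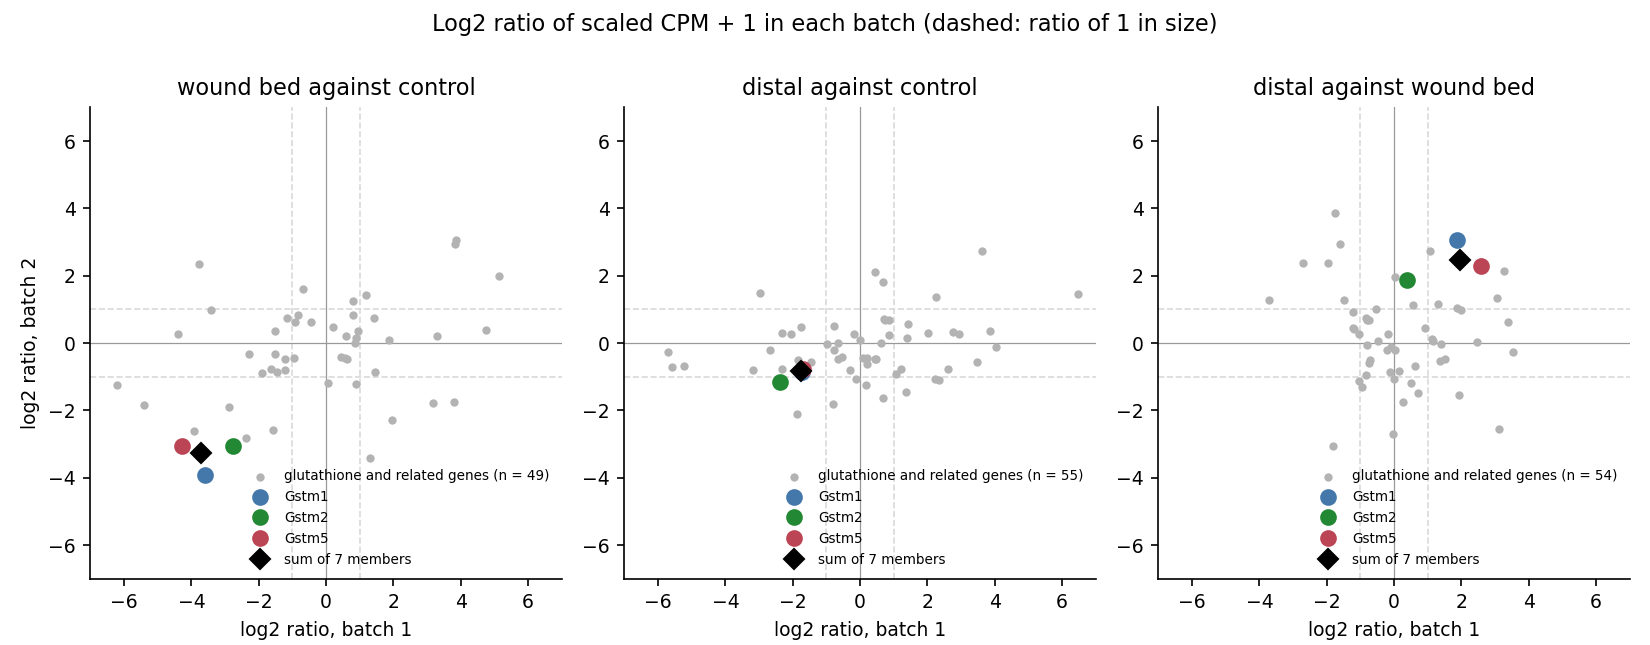
Log2 ratio of scaled CPM plus 1 in batch 1 (horizontal) and batch 2 (vertical) for Gstm1, Gstm2, Gstm5, the sum of the 7 members and, in grey, the other genes of the glutathione and related lists that were considered. Dashed lines mark ratios of 1 in size; the family lies at -3.72 and -3.28 for wound bed against control, -1.76 and -0.82 for distal against control, and 1.96 and 2.46 for distal against wound bed.

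The neighbouring genes on chromosome 3 were looked up by the same rule. Of 12 other protein-coding genes within 300 kb of the cluster 5 were considered, and 0 passed the size rule in each of the 3 comparisons. They include Gnai3, a G protein subunit (-0.97 and 2.04 for wound bed against control), and Psma5, a proteasome subunit (0.19 and -0.15). With 5 genes, a count of 0 is near the shares over all genes, so nothing is read from it. Amigo1, a cell adhesion protein, stood at -3.66 and -2.43 for wound bed against control but had reads in too few cells to be considered. These 3 neighbours were picked after their values were seen.

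The members were often found in the same cells. At least 2 members had a read in 69 control cells (82.1%), 42 distal cells (51.9%) and 20 wound bed cells (23.5%). At 10000 reads a cell these were 61 of 83, 29 of 77 and 14 of 78 cells. Of the 61 control cells with Gstm1, 58 also had Gstm5 (95.1%), against 56.5% of the control cells without Gstm1. In distal cells Gstm5 was found in 80.4% of cells with Gstm1 and 31.4% of those without, and in wound bed cells in 60.9 and 21%. Gstm5 was thus found more often in cells with Gstm1 than in cells without it in each region. In the wound bed 14 cells had both genes, 9 had only Gstm1 and 13 only Gstm5. Thinned cells gave shares of 96.2 and 56.7%, 69.4 and 29.3%, and 68.8 and 12.9%.

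Levels of Gstm1 and Gstm5 varied together from cell to cell within a plate. Spearman's rho of their CPM was 0.46 and 0.47 in control batches 1 and 2, 0.71 and 0.54 in distal and 0.70 and 0.29 in wound bed cells, over 28 to 56 cells a plate that share a library depth range and many zeros. Thinned cells gave 0.40 and 0.48, 0.42 and 0.63, and 0.76 and 0.43. These values are descriptions and have no test. In cells with both genes, Gstm5 made up a median of 62.9% of the pair's reads in 58 control cells, 54.8% in 37 distal cells and 67.5% in 14 wound bed cells, with wide quartiles that overlapped (42.3 to 83%, 36.5 to 78% and 41.7 to 75.6%). By rho Gstm2 was less closely tied to either, although it shares more sequence with Gstm1. It was also the sparsest of the 3, with a read in 37.2% of all cells, which was not allowed for. Its rho with Gstm1 lay between 0.09 and 0.37 over the 6 plates and its rho with Gstm5 between -0.23 and 0.39. Gstm2 was found in 57.4% of control cells with Gstm1 and 34.8% of those without. Distal shares were 47.8 and 22.9%, and wound bed shares 30.4 and 21%. In cells with 2000 or more genes the pairs were closer, at 61.3 and 60%, 51.6 and 50%, and 41.7 and 35.7%. Gstm5 was found in 90.7% of control cells with Gstm2 and 78% of those without, and in 70 and 52.9% of such distal cells. In the wound bed the shares were 25 and 33.8%, on 20 cells with Gstm2, and this order turned in batch 1 (37.5 and 18.2%) and in thinned cells (30 and 23.5%).

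**Figure D4:**
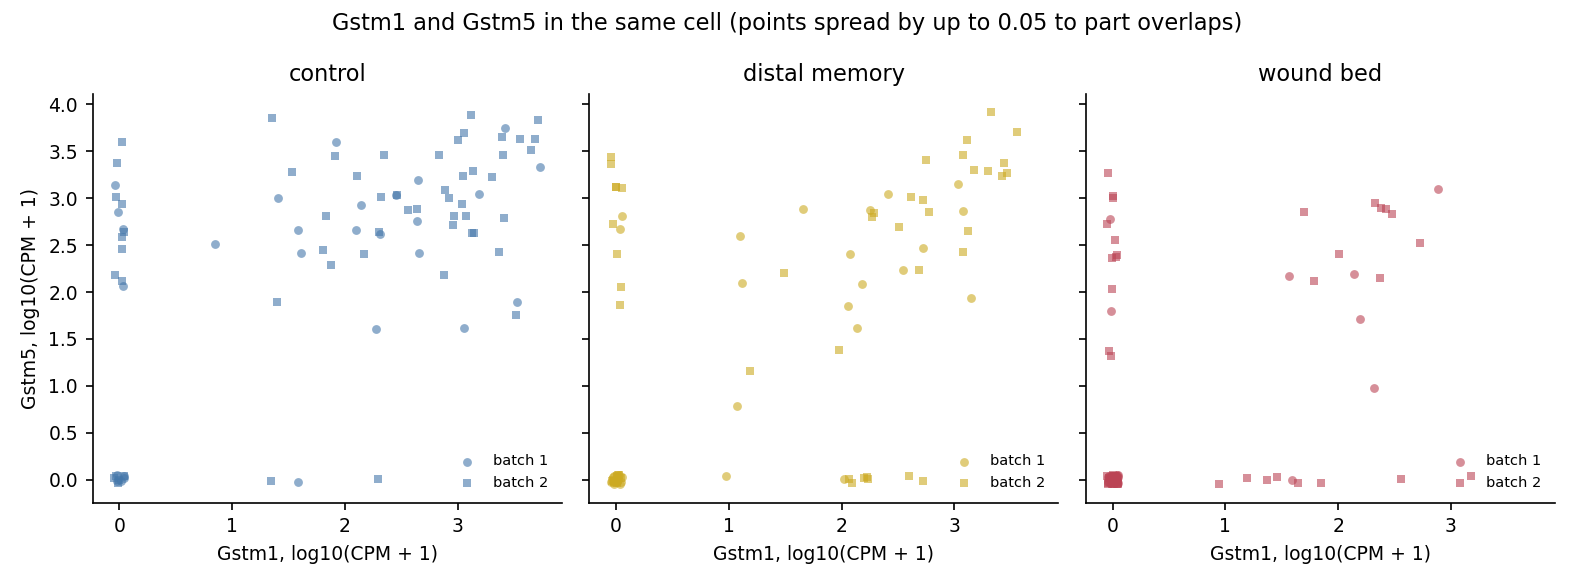
Gstm1 (horizontal) and Gstm5 (vertical) in the same cell, both as log10 of CPM plus 1, in control, distal memory and wound bed cells; circles are batch 1 and squares batch 2. Cells with both genes number 58, 37 and 14 from left to right, and cells with neither gather at the origin (10, 24 and 49).

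Upper hair follicle markers were also highest in control cells. The 10 markers of that list summed to 16575 and 28496 CPM in control, 4265 and 6865 in distal, and 2338 and 12792 in wound bed plates, with Klk10 at 0 in the wound bed and Lrig1 at 0 in its batch 2. In batch 2 the wound bed thus exceeded distal cells for the sum of this list, unlike for the family. Most of that wound bed sum came from 2 listed genes, Cst6 (7357 CPM against 3504 in distal) and Defb6 (4415 against 1149). The same 2 genes made up most of the control sums, with Cst6 at 4109 and 17700 CPM and Defb6 at 9184 and 5547. Krt79 (626 against 1044), Krt17 (128 against 749) and Sostdc1 (139 against 291) were lower in the wound bed than in distal cells of batch 2. In batch 1 Krt79 (435 against 1458), Sostdc1 (97.3 against 211) and Defb6 (741 against 1984) were lower in the wound bed. Krt17 (271 against 87) and Cst6 (763 against 399) were higher there in batch 1. Krt79, a keratin of the duct that opens the follicle, had a read in 36 control (42.9%), 14 distal (17.3%) and 16 wound bed cells (18.8%). Cells with a Krt79 read had a median family level of 1994 CPM in control, 1796 in distal and 710 in wound bed cells. Cells without one had medians of 789, 297 and 0 CPM. Cells with Krt79 were also deeper, with median reads of 80336, 71496 and 45340 against 52030, 46244 and 40133. Control and distal cells with Krt79 were thus close in pooled level, and wound bed cells were lower both with and without it. Within batches the medians with Krt79 were 1106 and 2380 in control, 890 and 4013 in distal, and 137 and 950 in wound bed cells, where distal batch 1 has 3 cells and wound bed batch 1 has 5. At 10000 reads a cell, a family read was present in 97.2, 92.3 and 73.3% of cells with Krt79 and in 74.5, 60.9 and 30.2% of cells without. Plate sums over cells without a Krt79 read gave family log2 ratios of -3.88 for wound bed against control and -1.28 for distal against control, beside -3.50 and -1.29 over all cells.

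**Figure D5:**
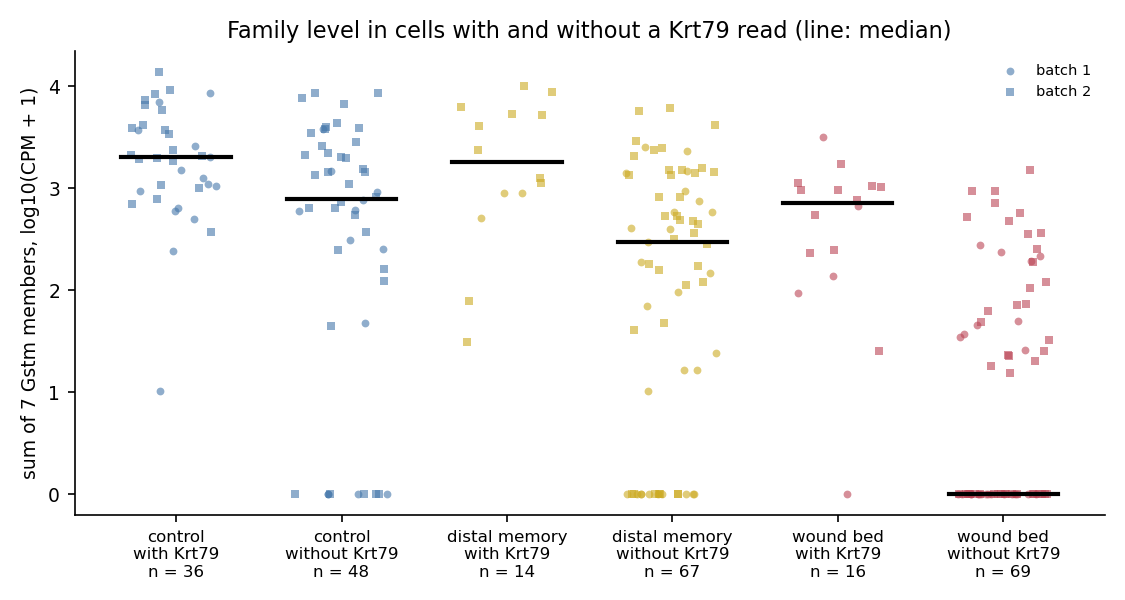
Sum of the 7 members in each cell, as log10 of CPM plus 1, for cells with and without a Krt79 read in each region; points are cells (circles batch 1, squares batch 2) and lines are medians. The median is 1994 CPM in 36 control cells with Krt79 and 1796 in 14 distal cells with Krt79, and 710 in the 16 such wound bed cells.

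Suprabasal keratins, which mark cells that have left the basal layer, went the other way. A read of Krt10 or Krt1 was found in 59.5% of control, 72.8% of distal and 84.7% of wound bed cells. The suprabasal list summed to 17863 and 17850 CPM in control, 20912 and 13218 in distal, and 35145 and 27156 in wound bed plates. Among cells with Krt10 or Krt1 the family had a median of 1177 CPM in control, 297 in distal and 23.1 in wound bed cells, and the wound bed against control ratio was -3.50, as over all cells. Among cells without these keratins the medians were 1431, 1410 and 31.3 CPM, with 34, 22 and 13 cells. Pooled over batches, distal cells without suprabasal keratins thus had a median family level near that of control, but not within either batch. Their median reads were 26086, against 65262 in such control cells. The same split by batch gave 642 and 2049 CPM in control and 1889 and 1087 in distal cells, the first of these from only 4 cells. The part of this shift in cell make-up in the differences between regions was not tested.

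Cells rich in Gm10800 reads and the deepest cells were left out in turn. Without the cells rich in Gm10800 reads the family ratios were -3.41 for wound bed against control, -1.19 for distal against control and 2.23 for distal against wound bed. This left out 18 of the 28 control cells of batch 1. The medians over all genes considered moved to 0.28, 0.43 and 0.12 in the 3 comparisons. Without cells over 500000 reads the family ratios were -3.50, -1.47 and 2.03. Gstm1, Gstm2 and Gstm5 were each called lower in the wound bed against control in these settings too.

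Genes that most resembled the family from cell to cell were chosen among 2067 genes with reads in at least 25% of cells, by the mean over the 6 plates of Spearman's rho with the family's CPM. They were Dpysl3 (mean rho 0.45), a cytoskeletal protein of the collapsin response mediator family, Krt79 (0.43), Ptgr1 (0.42), a reductase of prostaglandins and leukotrienes, Krt17 (0.40), a hair follicle keratin, and Defb6 (0.39), a beta-defensin. Dpysl3 ranged from 0.33 to 0.59 over the plates and Krt17 from 0.09 to 0.57. The median over all candidates was 0.06. Dpysl3 had a read in 50% of control, 43.2% of distal and 23.5% of wound bed cells, and Ptgr1 in 51.2, 42 and 27.1%. By likeness of the 6 plate levels instead, the first 5 genes were Krt15, Psme1, Sostdc1, Bola1 and Polr2f, with Pearson r of 0.991 to 0.963. With only 6 plates that share regions and batches, this measure is a description, and the mean rho within plates of these 5 genes lay between -0.03 and 0.20.

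The lists of related genes that follow are read against the shares over all genes. For wound bed against control these were 8.24% lower and 7.83% higher, and with 3 to 13 genes considered a list, counts of 0 or 1 are near them. For distal against control the shares were 6.09% lower and 8.07% higher. For distal against wound bed they were 5.28% lower and 9.59% higher. Of 15 other cytosolic transferases 4 were considered and 0 passed the size rule (median log2 ratio -0.16). Gsto1, of the omega class, had reads in 71.4% of control, 75.3% of distal and 87.1% of wound bed cells, with wound bed ratios of 0.60 and 0.21. Gstp1, of the pi class, had reads in 47.6, 50.6 and 41.2% of cells and ratios of -1.21 and -0.47. These 2 genes were picked after their values were seen, as the most often detected of the list. Of the membrane-bound transferases 3 were considered and 0 passed (median -0.70), with Mgst1 at -0.96 and -0.45, Mgst2 at -0.70 and 1.61, and Mgst3 at -1.65 and -0.77. For distal against wound bed, 5 other cytosolic and 4 membrane-bound transferases were considered. Gstt3, of the theta class, was called higher (1.06 and 2.72), and Gstz1 (-1.81 and -3.07), of the zeta class, and Mgst2 (-1.04 and -1.13), a membrane-bound enzyme, were called lower. Mgst2 no longer passed with cells weighted equally (-1.29 and 0.60), after thinning or without the top family cell of each plate. Gstz1 no longer passed after thinning (-0.93 and -3.41).

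Of the genes that make and recycle glutathione, 9 were considered for wound bed against control, 1 was called higher and 1 lower, near the shares over all genes. Ggct, which frees 5-oxoproline from gamma-glutamyl peptides, was higher (5.12 and 1.98), with reads in 32.9% of wound bed and 15.5% of control cells. Gss, glutathione synthetase, was lower (-2.70 and -3.12), but with reads in only 9 control and 6 wound bed cells, and after thinning it had too few cells with a read to be considered. For distal against control 2 of 11 genes considered were called higher, beside 8.07% of all genes. They were Ggct (6.47 and 1.45) and Gsr (2.26 and 1.36), glutathione reductase, the latter with reads in 10 distal and 2 control cells and too few to be considered after thinning. Against the wound bed, distal cells were called higher for 2 of 12 genes considered, beside 9.59% of all genes. These were Gclc (3.06 and 1.33), the catalytic subunit of the first step of synthesis, and Oplah (1.86 and 1.05), which recycles 5-oxoproline. Gclc no longer passed with cells weighted equally (4.15 and 0.18) or after thinning, and Oplah had too few cells with a read once thinned.

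Among genes of conjugate export, 6 were considered for wound bed against control, with 3 called higher and 1 lower. The shares over all genes were 7.83% higher and 8.24% lower. Abcc1, an exporter of glutathione conjugates, stood at 1.18 and 1.44 and fell short with equal weights (0.62 and 1.53) and after thinning (1.08 and 0.43). Abcc4, an exporter of organic anions, stood at 3.87 and 3.06, with reads in 21.2% of wound bed and 8.33% of control cells. Abcc5 had 0 and 22 reads in control, 86 and 123 in distal, and 24 and 133 in wound bed plates. It was called higher than control in both other regions, though not in thinned cells. In distal cells it was the 1 gene called of 6 considered, beside 8.07% of all genes called higher. Anpep, an aminopeptidase that trims peptides at the cell surface, was called lower in the wound bed (7 and 70 reads in control against 0 and 5), though not after thinning.

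Of the peroxidase, peroxiredoxin and glutaredoxin list, 13 genes were considered for wound bed against control, with 2 called lower and 0 higher, beside 8.24 and 7.83% of all genes. Gpx4, which reduces lipid hydroperoxides, had 399 and 777 reads in control and 26 and 135 in the wound bed (-2.89 and -1.91), and was found in 71.4 and 34.1% of cells. Gpx2, a peroxidase of epithelia, was lower in the wound bed (-5.40 and -1.85, the first from 2 wound bed reads) and in distal cells (-1.88 and -2.12), the latter not with cells weighted equally (-0.30 and -1.68). For distal against control it was the 1 gene called lower of 14 considered, near the 6.09% of all genes. The list's median was 0.33, so the 2 calls did not extend to most of its genes.

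The NRF2 list had 11 genes considered for wound bed against control, with 1 called lower, 0 higher and a median of -0.56. The gene called was Aldh3a1, an aldehyde dehydrogenase of surface epithelia (-2.38 and -2.83), found in 61.9% of control, 59.3% of distal and 37.6% of wound bed cells. Against the wound bed, distal cells were called higher for 3 of 13 genes considered, beside 9.59% of all genes. These were Aldh3a1 (2.58 and 2.40), Gclc and Keap1 (1.30 and 1.17), the inhibitor of NRF2. Keap1 fell short in batch 1 with equal weights (0.83) and did not pass after thinning. For distal against control 0 of 14 passed.

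Of the aryl hydrocarbon receptor list, 6 genes were considered for wound bed against control and 3 were called lower, beside 8.24% of all genes. The list median was -1.38. Ahr, the receptor itself, had 1033 and 1131 reads in control, 1403 and 571 in distal and 33 and 120 in wound bed plates. Its ratio for wound bed against control was -3.93 and -2.61, or -3.68 and -0.49 with cells weighted equally, where it no longer passed. Cyp1b1, a cytochrome P450 induced by the receptor, had 255 and 82 reads in control against 0 and 21 in the wound bed, and had too few cells with a read to be considered after thinning. Aldh3a1 is also on this list. Within plates Ahr had a mean rho with the Gstm family of 0.22, between 0.03 and 0.30. Distal cells were called higher than wound bed cells for 2 of 5 genes considered, beside 9.59% of all genes. These were Ahr (3.28 and 2.13, or 1.56 and 0.58 with cells weighted equally) and Aldh3a1. For distal against control 0 of 6 genes passed.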

How the data were processed

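The deposited table holds whole-number read counts per gene and cell for 250 Smart-Seq2 cells. Salmon 0.13.1, R 4.0.3, Seurat and the build mm10 (GRCm38) are listed, per the submitters' processing notes, without role or order, and how the authors summed and rounded estimated values to counts is not given in the sources used here. No column was left unused and no 2 cells had identical counts. Plates held 1751116 to 10671470 reads and cells 3857 to 3119120. No cell was left out of the main values, no doublets were called and no free RNA was subtracted.

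Counts were summed per plate, scaled by TMM (edgeR 4.0.16, R 4.3.3) to CPM, and log2 ratios of CPM plus 1 were taken within each batch. The size rule and detection filter are stated with the results, and the code was tested on simulated data. Fold intervals treat counts as Poisson. DESeq2 1.42.0 size factors, other scalings, filters and sets of cells were alternatives. All 7 members were named. List genes were named where they passed the size rule, and the 5 most like genes by each of 2 measures. Members and lists were chosen with earlier results of these data known. Promoters came from RefSeq, and loci and transcripts from GENCODE M21.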

Additional observations from a re-analysis of the deposited data

How the results depend on the processing

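All ratios here are log2, and alternatives from "without Gm10800-rich cells" onward were chosen after seeing the data. The mean ratio of the family sum kept its direction in each of the 3 comparisons under all 19 alternatives, as did Gstm1, Gstm2 and Gstm5. In wound bed against control 3 members passed the size rule in 19 of 19. Nothing is read from that count, because the members were chosen on this contrast. In batches 1 and 2 alone 29.3 and 25% of all genes were also called lower. For wound bed against control (-3.50) the family stood at -3.36 with total counts, -3.16 under equal weights for cells, -3.73 in cells with 2000 or more genes, -3.74 without the top family cell of each plate, -3.18 after thinning, and -3.72 and -3.28 in batches 1 and 2 alone. For distal against control (-1.29) the same settings gave -1.37, -1.18, -1.26, -1.61, -1.20, -1.76 and -0.82, with -1.34 by DESeq2 size factors and -1.47 without cells over 500000 reads. For distal against wound bed (2.21) they gave 1.99, 1.98, 2.48, 2.13, 1.98, 1.96 and 2.46, with 2.03 without cells over 500000 reads. The distal against control count of 1 member lower became 0 after thinning and under equal weights. It was also 0 without the top family cell and in cells with 2000 or more genes. In batches 1 and 2 alone it became 3 and 2, where the second in batch 2 was Gstm6. In these single batches 26.4 and 22.4% of all genes were called lower. The distal against wound bed count of 2 became 4 in batch 2 alone, where 28.7% of all genes were called higher. It became 3, with Gstm2 added, under equal weights, without cells over 500000 reads and after thinning. The shares of all genes called higher were then 9.44, 8.85 and 6.01%. Of the settings added later, leaving out Gm10800-rich cells gave -1.19 for distal against control, where the median over all genes was 0.43. Leaving out the top 2 family cells of each plate gave -3.99 for wound bed and -1.81 for distal against control. In the latter 2 members were lower, beside 6.48% of all genes. Cells with a Krt10 or Krt1 read gave -1.35 for distal against control. Cells without one gave -5.23, -0.87 and 4.35 in the 3 comparisons, with 0 members lower in distal against control, on 3 and 10 wound bed cells. There the medians over all genes considered also moved, to -1.18, -0.60 and 0.73. Of all genes 29.6% were called lower in wound bed and 16.6% in distal cells against control. Cells without a Krt79 read gave -3.88 for wound bed against control and 2.60 for distal against wound bed. For single batches the change follows from the split itself, and for the other settings the cause was not tested.

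Of the 11 list genes called in wound bed against control, 9 still passed with cells weighted equally, 6 after thinning and 11 without the top family cell of each plate. For distal against control 3, 2 and 4 of 4 did. In the third comparison, distal to wound bed, 4, 3 and 7 of 8 did. No paired analysis was possible because no test was run, so there was no fit to which a block could be added. The ratios were already taken within each batch. Depth limits Gstm4, Gstm6 and Gstm7, which had too few reads to compare regions, and a share of cells with a read is a lower limit at these depths. Cells of a plate share their source, so the counting intervals understate the error between animals.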
